A study of Mus musculus with 20 samples.

Results

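The 10 hAPOE3 mice among the 20 mice of the series split into a group of 5 with a high and a group of 5 with a low level of the nuclear genes of respiratory complex I. The mice were chosen by a measured value, the complex I score. For each of the 37 genes whose symbol begins with Nduf followed by a, b, c, s or v and a number, the level as log2 CPM (counts scaled to a common library size by TMM, with a prior count of 2) was set against that gene's average in the 10 mice, and these differences were averaged in each mouse. A mouse above 0 is called a high-score mouse here and a mouse below 0 a low-score mouse. Because the same counts made the split, every comparison of the 2 groups of mice across genes is a description and carries no test.

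All mice were 16 months old, on a C57BL/6 background and homozygous for a targeted replacement of the mouse Apoe gene by human APOE3 or APOE4, and were perfused with saline before dissection. The 10 hAPOE3 mice were 5 females (F.APOE3, S144 to S148) and 5 males (M.APOE3, S154 to S158), and 5 females (F.APOE4) and 5 males (M.APOE4) carried APOE4. No mouse with its own mouse Apoe and no treatment were part of the comparison. PolyA RNA of the hippocampus was sequenced and the deposited counts cover 33119 genes, with 35778879 to 41707676 counts in the low-score mice and 40388894 to 52520279 in the high-score mice. The markers of the hippocampus were present in all 10 mice: Prox1 of the dentate gyrus was at 59.4 CPM or more and Wfs1 of CA1 at 66.2 CPM or more. Some libraries also held RNA of neighbouring tissue. Ttr, the thyroid hormone carrier made by the choroid plexus, ranged from 36.5 to 3696 CPM, and S158 stood apart in markers of the striatum and the thalamus.

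Complex I is the first and largest enzyme of the mitochondrial respiratory chain. It takes electrons from NADH, passes them to ubiquinone and pumps protons, and its subunits come from nuclear genes and from the mitochondrial genome. A small catalytic core is joined by many accessory subunits, most of them short proteins encoded by short messenger RNAs. Neurons depend on this chain for most of their ATP, and its subunits are made in step with those of complexes III, IV and V and with the mitochondrial ribosome.

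The promoters of 3 complex I genes are printed here because they hold the same short letters, AAGATGGC, while their differences, described below, range from 0.14 to 0.81 on the log2 scale. These letters are the core of the sequence bound by YY1, a zinc finger transcription factor. The windows come from RefSeq on GRCm38.p6, run 5′ to 3′ on the strand of the gene, and hold 250 bases before the annotated start and 50 after it. Capitals mark matches to the letters searched. The Ndufs7 window is chr10:80249199-80249498 on the plus strand, the Ndufs6 window chr13:73328433-73328732 on the minus strand and the Ndufa9 window chr6:126849095-126849394 on the minus strand.
Ndufs7: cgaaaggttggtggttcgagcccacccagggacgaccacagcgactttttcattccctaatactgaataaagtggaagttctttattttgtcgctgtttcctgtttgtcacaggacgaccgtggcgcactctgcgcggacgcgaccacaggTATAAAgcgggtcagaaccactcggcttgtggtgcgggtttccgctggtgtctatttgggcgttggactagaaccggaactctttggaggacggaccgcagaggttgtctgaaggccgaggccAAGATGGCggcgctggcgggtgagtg
Ndufs6: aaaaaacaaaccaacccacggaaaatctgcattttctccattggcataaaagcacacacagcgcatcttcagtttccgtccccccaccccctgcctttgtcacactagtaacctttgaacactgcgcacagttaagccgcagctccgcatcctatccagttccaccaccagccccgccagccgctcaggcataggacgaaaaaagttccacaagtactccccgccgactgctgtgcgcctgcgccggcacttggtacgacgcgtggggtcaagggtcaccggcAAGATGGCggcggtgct
Ndufa9: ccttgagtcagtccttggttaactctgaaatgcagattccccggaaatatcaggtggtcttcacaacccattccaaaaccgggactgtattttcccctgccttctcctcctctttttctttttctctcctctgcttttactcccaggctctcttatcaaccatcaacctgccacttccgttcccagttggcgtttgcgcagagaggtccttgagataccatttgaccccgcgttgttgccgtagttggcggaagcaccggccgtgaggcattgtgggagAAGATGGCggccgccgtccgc

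RefSeq windows were matched to 32 of the 37 complex I genes, 34 windows in all. AAGATGGC, searched on both strands, was in 7 of the 34 windows (20.6%), against 3.56% of the 17639 windows of all genes tested. It was in 6.18% of the windows of the other genes higher in every high-score mouse and in 4.03% for the lower genes. By list it was in 16.2% of the windows of mitochondrial ribosomal proteins, 11.8% of complex V, 0 of 5 of complex III and 0 of 8 of complex IV. In all 7 complex I windows it lay on the gene's own strand, 22 to 38 bases past the start. The letters contain ATG, and whether they hold the start of the coding sequence was not tested. Of the 628 windows of all tested genes that held it, 39.3% had it on that strand and past the start. Capitals in Ndufs7 also mark TATAAA, which was in 14.7% of the complex I windows and 8.86% of all windows. The letters CCGGAAG, the core bound by ETS factors, were in 4 complex I windows (11.8%), in 13.5% of all windows, in 25.7% of the windows of the other genes that were higher in every high-score mouse and in 12.2% of the windows of the genes that were lower. GCGCATGC, the core bound by NRF1, was in 3 complex I windows (8.82%) and in 4.15% of all windows, and TGACGTCA, the letters of the cAMP response element, in 3 (8.82%) and 2.58%. These shares are descriptions. The 7 genes that hold AAGATGGC had log2 fold changes, as defined below, from 0.14 in Ndufa9 to 0.81 in Ndufs7.

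The complex I score was -0.375 in S144, -0.330 in S145, -0.416 in S146, -0.289 in S154 and -0.219 in S155. It was 0.241 in S147, 0.297 in S148, 0.398 in S156, 0.342 in S157 and 0.353 in S158. The high-score mice averaged 0.326 ± 0.0596 (SD, n = 5) and the low-score mice -0.326 ± 0.0764 (SD, n = 5). S147 and S155 were the mice nearest to 0, and the gap of 0.460 between them was wider than the range within either group. Of the F.APOE3 mice 2 were above 0 and of the M.APOE3 mice 3, so that the split did not follow the F and M labels (two-sided Fisher's exact test, p = 1.00). It did follow the sample numbers within each sex. The low-score mice were S144 to S146 and S154 to S155, and the high-score mice S147 to S148 and S156 to S158. Whether these numbers go with an order of handling was not tested. No mouse changed sides with DESeq2's size factors, with the authors' normalized counts, with a median over genes, with a prior count of 0.5, with centring over 20 mice, or when any 1 of the other mice was left out.

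Centred over all 20 mice instead, the score placed the 10 hAPOE4 mice between the hAPOE3 groups. The low-score mice ran from -0.359 to -0.173, the hAPOE4 mice from -0.168 to 0.0455 (median -0.0606) and the high-score mice from 0.274 to 0.438. The high-score mice thus stood clear of the other 15 mice, while the low-score mice continued without a gap into the hAPOE4 mice. The first principal component of the 500 most variable genes over the 10 hAPOE3 mice held 31.5% of the variance and did not split them in the same way. S156, the mouse with the highest score, lay at -4.72 on it and S144, a low-score mouse, at 0.988. The other high-score mice lay between 11.9 and 24.3 and the other low-score mice between -25.3 and -12.0.

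**Figure D1:**
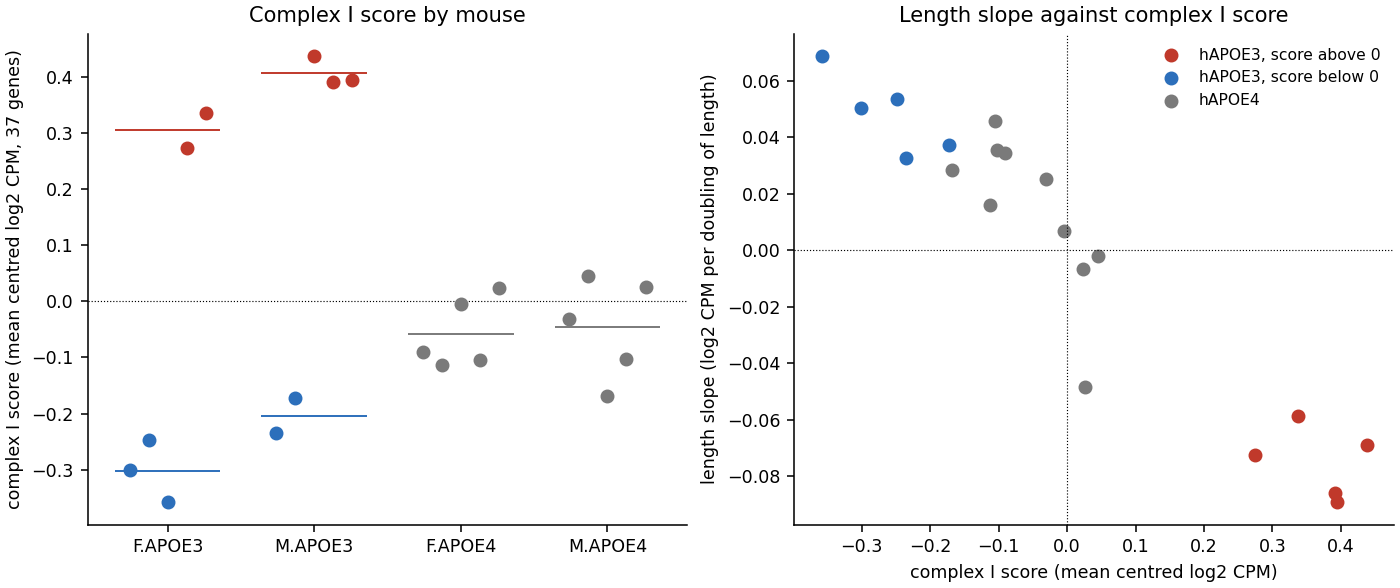
Left, complex I score of each of the 20 mice by group, centred over all 20; each point is a mouse and the lines are means of the mice of one colour. Right, the length slope of each mouse against the score; the 5 high-score mice lie at the lower right and the hAPOE4 mice between the hAPOE3 groups.

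Total counts were higher on average in the high-score mice. They averaged 45858974 ± 4591552 (SD, n = 5) against 38730729 ± 2288635. The rule divides by them to give CPM, so the difference of 7128244 is a description. S147 with 40388894 counts lay below S145 with 41707676, so the ranges overlapped. With S158 left out the difference was 5462918. The part of depth in the differences below was not tested.

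Of 20739 genes with at least 10 counts in at least 5 of the mice, 2550 (12.3%) were higher in every high-score mouse than in any low-score mouse, and 2069 (9.98%) were lower in every high-score mouse. These genes are called higher and lower without overlap. With DESeq2's size factors there were 2208 higher and 2426 lower genes and with the authors' normalized counts 2206 and 2268, so that which direction held more genes depended on the scaling. The fold changes and their standard errors come from an edgeR fit with F and M as a term. The change was at least 1 on the log2 scale for 105 of the higher and 238 of the lower genes, and the median over all genes was 0.01. Between the 2 groups of mice lay a median of 27.3% of a gene's variance, and between F and M a median of 7.11%.

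Against that background of 12.3%, 34 of the 37 complex I genes were higher without overlap and 0 were lower, which the rule itself favours. The median log2 fold change of the 37 genes was 0.64, and the 34 ran from 0.38 to 0.90. The median was 0.65 within the F mice and 0.62 within the M mice. In bulk RNA a larger number of cells and more RNA per cell cannot be told apart. The summed level of the genes ran from 2193 to 2506 CPM in the low-score mice and from 3369 to 3772 CPM in the high-score mice.

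Among the catalytic core subunits, Ndufs7 (log2 fold change 0.81 ± 0.07 SE) and Ndufs8 (0.74 ± 0.06), which carry the iron-sulphur clusters nearest to ubiquinone, differed most. Ndufs3 (0.54 ± 0.06), Ndufv1 (0.49 ± 0.06), which binds NADH, and Ndufv2 (0.38 ± 0.09) followed. Ndufs1, the largest core subunit, was the exception. It was at 145.8, 140.4, 142.5, 144.3 and 147.1 CPM in S144, S145, S146, S154 and S155, and at 117.1, 134.1, 168.4, 127.2 and 116.7 CPM in S147, S148, S156, S157 and S158. The low-score mice were close together, and 4 of the high-score mice lay below them and S156 above (log2 fold change -0.18 ± 0.09). With the authors' normalized counts the log2 fold change was -0.03, and without S147 or S158 it was -0.09 or -0.10. Without S156 it was -0.26.

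The accessory subunits at the top of the range were Ndufa13, Ndufb7 and Ndufa2. Ndufa13, a membrane arm subunit also known as GRIM-19, was at 69.5, 59.9, 56.9, 68.5 and 77.7 CPM in the low-score mice, in the order just used, and at 122, 128, 127, 134 and 141 CPM in the high-score mice. Each high-score mouse was thus well above each low-score mouse (log2 fold change 0.90 ± 0.07). Ndufb7, of the membrane arm, averaged 73.4 ± 4.77 CPM (SD, n = 5) in the high-score and 38.7 ± 3.45 CPM in the low-score mice, and Ndufa2, of the arm that takes up NADH, 81.5 ± 7.08 and 43.4 ± 3.85 CPM.

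The most expressed of the 37 genes was Ndufa4, now counted as a subunit of complex IV. It was at 159.1, 170.0, 158.3, 166.1 and 169.0 CPM in the low-score mice and at 226.7, 252.6, 265.9, 259.1 and 229.7 CPM in the high-score mice (log2 fold change 0.53 ± 0.06). Ndufb9 (0.76 ± 0.07), a membrane arm subunit, came next with 116 ± 14.4 CPM in the low-score and 206 ± 12.9 CPM in the high-score mice (SD, n = 5). Beside Ndufs1 only Ndufa9 and Ndufa4l2 overlapped. Ndufa9 was at 86.1 to 93.6 CPM and at 92.7 to 110 CPM (0.14 ± 0.06). Ndufa4l2, a low-oxygen paralog of Ndufa4, averaged 1.78 CPM (0.46 ± 0.18).

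Within the 37 genes the fold change went with base composition more than with length. Its Spearman correlation was 0.60 with the GC content of the transcripts, -0.33 with the longest annotated transcript and -0.20 with the mean level (n = 37 genes from the same libraries). The 11 genes with a transcript over 1500 bases had a median log2 fold change of 0.49 and the other 26 one of 0.66.

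**Figure D2:**
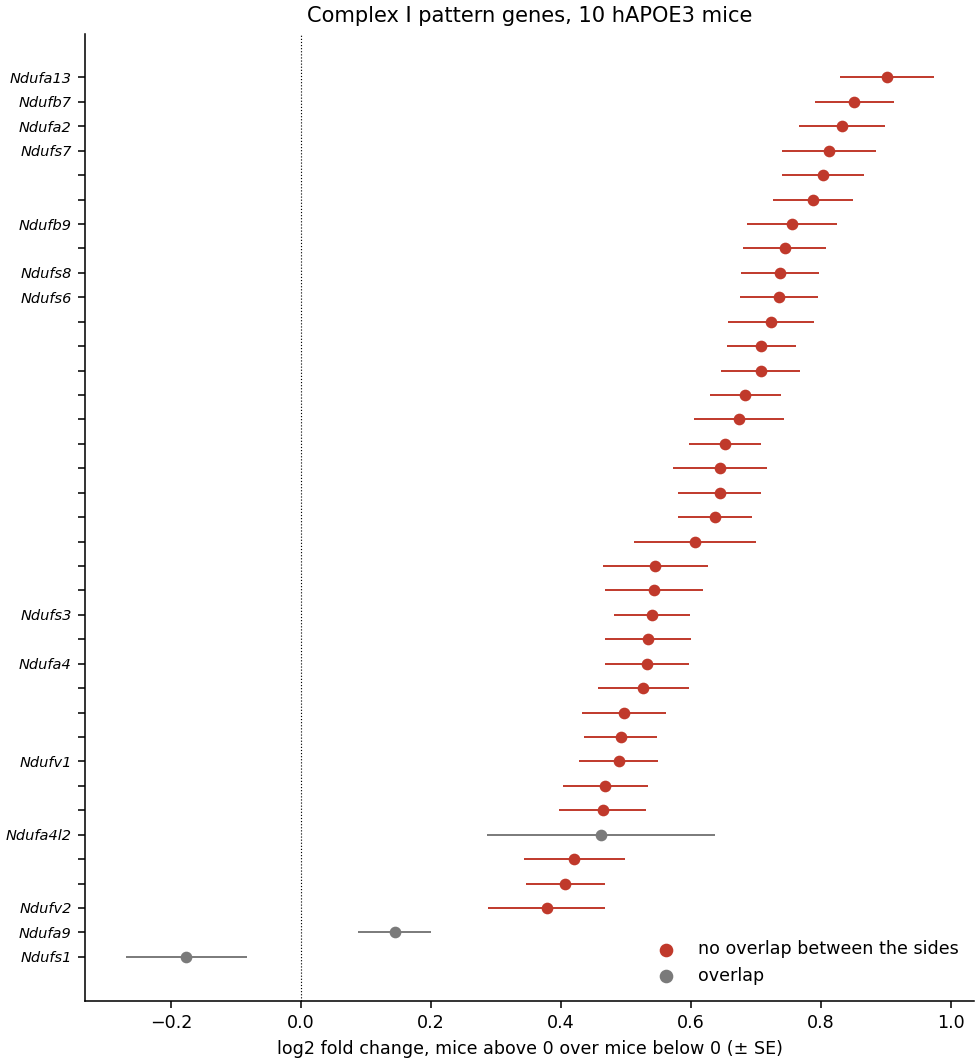
Log2 fold change of each of the 37 complex I genes, high-score over low-score mice, with bars of 1 standard error of the edgeR fit; genes described in the text are labelled. Of the 37 genes 34 have no overlap between the 5 and 5 mice; Ndufs1 alone lies below 0.

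The other respiratory complexes differed in the same direction. The background was 12.3% of all genes higher without overlap, and 23.4% of those with a median transcript of 500 to 1000 bases. The median transcript length of complexes II to V was 526.5 to 978.5 bases, and the part of length was not tested. All 10 nuclear genes of complex IV were higher without overlap, 8 of 9 of complex III, 14 of 16 of complex V and 3 of 4 of complex II, with 0 lower, and their median log2 fold changes were 0.61, 0.51, 0.59 and 0.40. Cox4i1, a complex IV subunit, was at 289, 278, 278, 304 and 356 CPM in the low-score mice and at 507, 512, 557, 624 and 586 CPM in the high-score mice (0.80 ± 0.07). The smallest difference in complexes V, II and III was that of Atp5a1, Sdha and Uqcrc2. Atp5a1, the alpha subunit of the ATP synthase, had a log2 fold change of 0.19 ± 0.06, and Atp5b, its catalytic beta subunit, one of 0.31 ± 0.07, which was 0.74 with the authors' normalized counts. Sdha, the flavoprotein of complex II, was at 362 ± 14.4 and 375 ± 23.2 CPM (SD, n = 5) and Uqcrc2, a core protein of complex III, at 190 ± 6.54 and 196 ± 16.3 CPM in the low-score and the high-score mice, and both overlapped.

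The score of the mitochondrial genome genes, taken as for complex I, overlapped through S145, a low-score mouse at 0.256. The other low-score mice lay at -0.168, -0.136, -0.239 and -0.148, and the high-score mice between -0.029 and 0.255. Of the 13 genes 10 had a log2 fold change above 0, and the median was 0.20. Only mt-Co3, a complex IV subunit, was higher without overlap (0.42 ± 0.11), against 12.3% of all genes. Of the factors that assemble complex I, 6 of 14 were higher without overlap, with a median of 0.27.

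Genes of protein synthesis and degradation, whose levels come from the same counts as the score, were also mostly higher. The background was 12.3% of all genes, and 23.4% of those with a median transcript of 500 to 1000 bases. The median transcript length of these lists was 632 to 854.5 bases, and the part of length was not tested. Of the cytosolic ribosomal proteins 75 of 79 were higher without overlap and 0 lower, with a median log2 fold change of 0.60. Rplp1, of the ribosomal stalk, was at 275, 266, 259, 295 and 322 CPM in the low-score mice and at 497, 530, 530, 640 and 598 CPM in the high-score mice. Their summed level was 10029 to 11207 CPM in the former and 15750 to 18675 CPM in the latter. Of the mitochondrial ribosomal proteins 64 of 77 were higher (median 0.47), of the proteasome 25 of 38 (median 0.31) and of the spliceosome core proteins 12 of 14 (median 0.49), and 0 were lower in each list. Within the proteasome Psmc3 and Psmc5, ATPases of the regulatory particle, had log2 fold changes of 0.56 ± 0.05 and 0.55 ± 0.05, while the large scaffold subunits Psmd1 (0.07 ± 0.08) and Psmd2 (0.04 ± 0.06) overlapped.

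Glycolysis and the TCA cycle were split within themselves. The background of genes higher without overlap was 12.3%, and 23.4% for a median transcript of 500 to 1000 bases. The median transcript length was 742 bases in glycolysis and 713.5 in the TCA cycle. Of 16 glycolytic genes 8 were higher without overlap (median 0.28), among them Gapdh at 1223 ± 75.5 CPM in the low-score and 1837 ± 207 CPM in the high-score mice (SD, n = 5) and Aldoa at 1139 ± 86.7 and 1580 ± 161 CPM. Of 16 TCA cycle genes 7 were higher (median 0.07, and 0.13 without S158). Mdh2, the mitochondrial malate dehydrogenase, had a log2 fold change of 0.54 ± 0.06, whereas Pdha1 of pyruvate dehydrogenase (-0.04 ± 0.08) and citrate synthase Cs (0.08 ± 0.06) overlapped.

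Among the lists of membrane signalling and chromatin several genes were lower without overlap, to be read against the background of 9.98%. That background rises with length. It was 7.45% for all genes with a median transcript of 1000 to 2000 bases, 13.3% for 2000 to 4000 bases and 27.2% for 4000 to 8000 bases. By the longest transcript it was 21.1% for 4000 to 8000 bases and 49.3% over 8000 bases. The median transcript length was 1734 bases in the chromatin list, 2979 in the channels, 3260 in the glutamate receptors and 3197.5 in the adhesion molecules. The part of length in these lists was not tested. Of the histone methyltransferases and chromatin remodellers 10 of 17 were lower (median -0.41), of the voltage-gated channels and ryanodine receptors 7 of 15 (median -0.49), of the glutamate receptors and scaffolds 5 of 20 (median -0.43) and of the synaptic adhesion molecules 5 of 16 (median -0.30), and 0 were higher in each list. Kmt2a, which methylates histone H3 at active genes, was at 238, 276, 317, 236 and 276 CPM in the low-score mice and at 171, 161, 161, 198 and 202 CPM in the high-score mice (log2 fold change -0.64 ± 0.11). Scn2a, a sodium channel of excitatory neurons, was at 364 ± 35.9 CPM (SD, n = 5) in the low-score and 236 ± 45.5 CPM in the high-score mice. The AMPA receptor subunits Gria1 (-0.33 ± 0.13) and Gria2 (-0.26 ± 0.14) overlapped, with S158 the lowest of the 10 mice for both, and were at -0.21 and -0.12 without it.

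Synaptic vesicle genes had a median log2 fold change of -0.13, with 1 of 15 higher and 1 lower, and the median was -0.01 without S158. Snap25, of the fusion machinery, was at 1882 ± 161 CPM in the low-score and 2103 ± 249 CPM in the high-score mice (SD, n = 5), and Syt1, the calcium sensor, at 1487 ± 73.4 and 1214 ± 162 CPM. Immediate early genes (0 of 12 without overlap, median -0.07, and from -0.25 to 0.29 with each mouse left out), nuclear long noncoding RNA (1 of 8 higher, median -0.01) and heat shock genes (1 of 11 higher, median 0.08) had few genes or 0 without overlap. Over all genes 12.3% were higher and 9.98% lower without overlap.

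**Figure D3:**
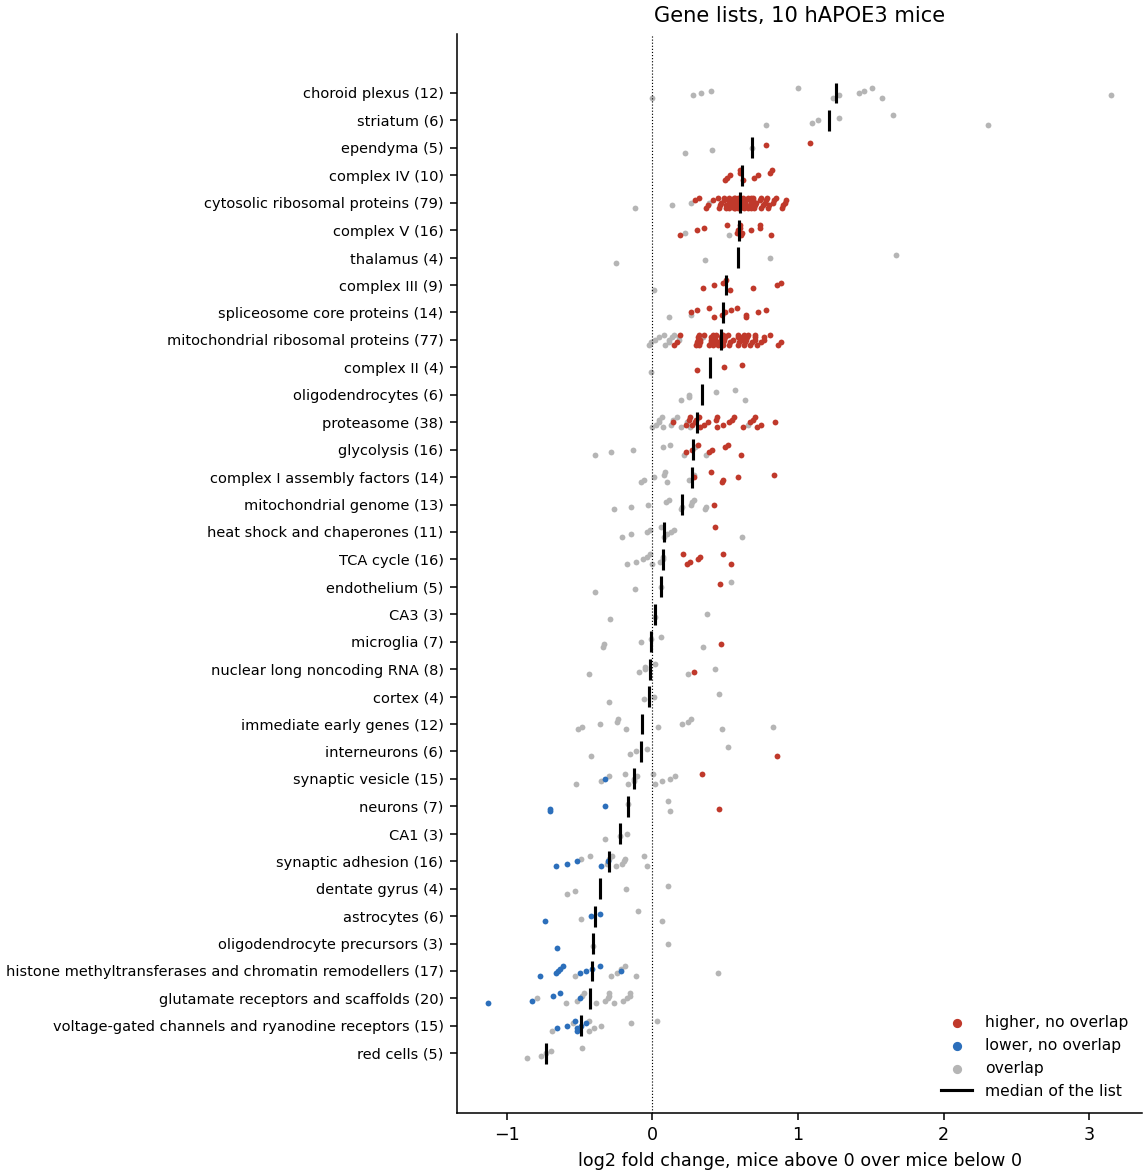
Log2 fold change of the genes of each list, high-score over low-score mice, with the number of tested genes in brackets; each point is a gene, coloured where the 5 and 5 mice do not overlap, and the bar is the median. Most genes of the respiratory complexes and the ribosomes lie above 0, and most channels, receptors and chromatin genes below 0. The choroid plexus, striatum and thalamus lists spread widely.

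Markers of several cell types were split within their lists. By sign of the fold change, 6 of 6 oligodendrocyte markers lay above 0, and 5 of 6 astrocyte and 3 of 3 CA1 markers below 0. The background was 12.3% of all genes higher and 9.98% lower without overlap. Of the 6 astrocyte markers 3 were lower without overlap (median -0.39). Slc1a2, the main glutamate transporter, was at 2857, 3360, 3242, 2781 and 3123 CPM in the low-score mice and at 1908, 1955, 2072, 2021 and 1419 CPM in the high-score mice, while Gfap was at 382 ± 54.4 and 367 ± 72.2 CPM (SD, n = 5). Of the 7 neuronal markers 3 were lower and 1 higher (median -0.17), and Camk2a had a log2 fold change of -0.70 ± 0.15. Without S158 the median of the neuronal markers was -0.01. Of 7 microglial markers 1 was higher (median -0.01), of 6 oligodendrocyte markers 0 were without overlap (median 0.34, and 0.20 without S158), and of 3 precursor markers 1, Pdgfra, was lower (-0.66 ± 0.10). The markers of dentate gyrus, CA1, CA3 and cortex had 0 genes without overlap.

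Of the 5 markers of ependyma, the lining of the ventricles, 2 were higher without overlap (median 0.69, and 0.55 to 0.95 with each mouse left out). All 5 had a log2 fold change above 0. Their summed level was 12.48 to 35.48 CPM in the low-score mice, with S145 the lowest by score, and 29.5 to 41.6 CPM in the high-score mice, and their part in the other differences was not tested. Markers of the striatum, thalamus, choroid plexus and red cells stood out in single mice. The summed level of 6 striatal markers was 63.9 to 93.3 CPM in the low-score and 87.0 to 528 CPM in the high-score mice, with S158 the highest, and 0 of 6 were without overlap. That of 4 thalamic markers was 85.7 to 121 CPM and 82.5 to 446 CPM, again with S158 the highest. The 12 choroid plexus markers summed to 267 to 5811 CPM in the low-score and 316 to 4844 CPM in the high-score mice. Ttr was high in S144 and S145 of the former and in all of the latter but S156. The 5 red cell markers ranged from 14.8 to 301 CPM and from 18.7 to 197 CPM. Without S148 and S158, the mice with the most striatal marker RNA, the median difference in log2 CPM of the complex I genes was 0.66 in place of 0.68, that of the cytosolic ribosomal proteins 0.69 in place of 0.67, and that of the channels -0.39 in place of -0.44.

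Some of the genes that differed most were highest in S158. Among genes outside the pattern with a mean of at least 10 CPM, the largest log2 fold changes without overlap were those of Gdf1 (2.45 ± 0.33), Pcdhgc4 (1.78 ± 0.16), Penk (1.55 ± 0.54), C1qtnf5 (1.41 ± 0.24), Tac1 (1.24 ± 0.40), Pcp4 (1.17 ± 0.31), Pdlim2 (1.10 ± 0.28), St3gal1 (1.06 ± 0.30) and Smdt1 (0.96 ± 0.09), and of 1 entry without a gene name. Penk, the precursor of the enkephalins, was at 18.7, 16.4, 16.9, 22.0 and 17.5 CPM in the low-score mice and at 23.3, 54.0, 28.6, 26.4 and 186 CPM in the high-score mice, so that S158 stood far above the rest. Tac1, the precursor of substance P, was at 39.0 CPM in S158 and Pcp4 at 378 CPM. Without S148 and S158 the differences in log2 CPM of Penk, Tac1 and Pcp4 were 0.51, 0.53 and 0.80, in place of 1.29, 1.12 and 1.15. The part of striatal RNA in these differences was not tested. Smdt1, a regulator of the mitochondrial calcium uniporter, was also highest in S158 but spread less among the high-score mice. It was at 42.8, 40.8, 35.6, 47.6 and 52.0 CPM in the low-score and at 87.7, 84.9, 77.3, 93.9 and 105 CPM in the high-score mice.

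The largest differences below 0 were those of Gm28661 (-3.17 ± 0.56), Robo1 (-2.60 ± 0.32), Gm14440 (-2.33 ± 0.57), Pakap (-2.33 ± 0.43), Shc3 (-1.93 ± 0.24), Klhl11 (-1.78 ± 0.26), Palm2 (-1.78 ± 0.19), Gabrb2 (-1.77 ± 0.11), Heatr5b (-1.77 ± 0.21) and Soga1 (-1.77 ± 0.16). Gabrb2, a subunit of the GABA-A receptor, was at 92.9, 106, 127, 88.5 and 104 CPM in the low-score mice and at 28.9, 31.2, 35.3, 31.6 and 28.2 CPM in the high-score mice, with little spread in either. Robo1, a receptor that guides axons, was at 17.2, 16.4, 24.2, 23.3 and 23.6 CPM and at 2.18, 2.52, 9.26, 4.08 and 2.72 CPM. S156 had the highest level of the high-score mice for 7 of these 10 genes: Soga1 (20.1 CPM), Heatr5b (23.5), Klhl11 (16.1), Shc3 (11.8), Pakap (11.7), Robo1 and Gabrb2.

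Several of these counts are uncertain, because the genes overlap a neighbour or resemble another gene. Whether the counting split reads between such genes was not tested. Gdf1 overlaps Cers1 on the same strand, Palm2 overlaps Pakap, and Gm28661 is an unprocessed pseudogene without an overlapping gene. Cers1 was at 80.0 ± 5.84 CPM (SD, n = 5) in the low-score and 63.3 ± 21.2 CPM in the high-score mice and overlapped. Palm2 and Pakap were both lower. Pcdhgc4 belongs to the gamma protocadherins, adhesion proteins whose genes join single first exons to shared last exons. Pcdhgc4 was at 44.4, 61.6, 43.7, 81.6 and 73.5 CPM in the low-score and at 253, 219, 188, 206 and 220 CPM in the high-score mice. Its relatives went the other way: 17 of the 22 genes of the cluster were lower without overlap, and Pcdhgc4 was the single one higher. These relatives were looked at after their values were seen. Summed over the 22 genes, the level was 575 to 636 CPM in the low-score and 412 to 581 CPM in the high-score mice, so that the sums overlapped.

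The differences ran with transcript length over the whole transcriptome, as the rule names. Of the tested genes 19982 were matched by symbol to GENCODE M21 transcripts on GRCm38. The median log2 fold change was 0.37 for the 1410 genes whose longest transcript had 500 to 1000 bases, 0.27 for 1000 to 2000 bases, 0.05 for 2000 to 4000, -0.19 for 4000 to 8000 and -0.41 for the 982 genes over 8000 bases. It was 0.11 for the 636 genes up to 500 bases, so the trend turned at the short end. Of the genes over 8000 bases 484 (49.3%) were lower without overlap and 2 higher, and of those of 500 to 1000 bases 407 (28.9%) were higher and 41 lower. The longest transcript had a median of 1763 bases in the genes higher without overlap, 5934 in those lower and 3025 in all genes.

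Base composition moved with length. The median log2 fold change was -0.11 for genes with 40 to 45% GC and 0.11 for those with 55 to 60%. Among genes with a median transcript of up to 1000 bases it went from -0.02 below 45% GC to 0.22 at 50 to 55%, but over 4000 bases it was between -0.30 and -0.26 in each GC class. Across genes the Spearman correlation of the fold change was -0.46 with the longest transcript, -0.47 with the coding length (16153 genes) and 0.18 with GC content, values that share the same 10 libraries.

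**Figure D4:**
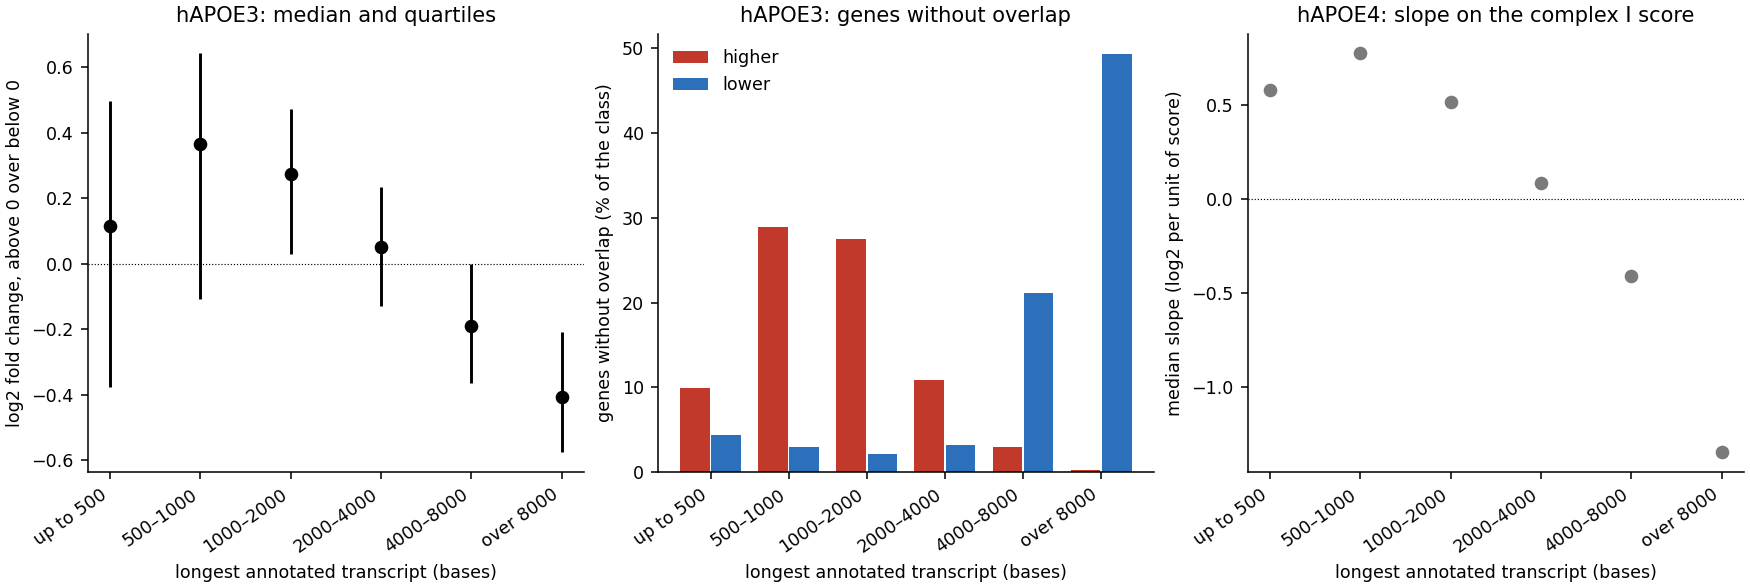
Genes by class of longest annotated transcript. Left, median and quartiles of the log2 fold change, high-score over low-score mice; middle, genes without overlap as a percentage of the class; right, median slope on the complex I score in the 10 hAPOE4 mice. All 3 turn from above to below 0, or from higher to lower genes, as length grows, and the shortest class departs from the trend at the left.

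In each mouse the trend was taken as the slope of centred log2 CPM on log2 median transcript length. It was 0.0570, 0.0533, 0.0641, 0.0446 and 0.0431 per doubling of length in S144, S145, S146, S154 and S155, and -0.0554, -0.0412, -0.0427, -0.0616 and -0.0612 in S147, S148, S156, S157 and S158. Every low-score mouse was thus above 0 and every high-score mouse below it. On the scale of all 20 mice the hAPOE4 mice ran from -0.0486 to 0.0455, between -0.0894 to -0.0589 in the high-score and 0.0327 to 0.0688 in the low-score mice, with overlap at the latter end.

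The authors' normalized counts carry a correction per gene and mouse that tracks the average length of the transcripts present. Its slope on transcript length comes from the same quantification as the counts that made the split, so the difference is a description. The slope was 0.00397 ± 0.00287 per doubling (SD, n = 5) in the low-score and -0.00397 ± 0.00258 in the high-score mice, and the groups did not overlap. The difference was -0.00794, against -0.105 for the counts themselves. Over genes with 1 annotated transcript alone it was -0.00193. With the authors' normalized counts, which take this correction in, the difference in the length slope was -0.0999. Among 14563 genes with more than 1 transcript 1458 had a longer average transcript in every high-score mouse and 1038 a shorter one.

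The 10 hAPOE4 mice, which the rule did not use, allow a test of whether these measures go together elsewhere. Their scores, centred over these 10 mice, ran from -0.0936 to 0.0905 with a largest gap of 0.338 of that range, and spread less than those of the hAPOE3 mice. Of 6 relations of the score tested, 4 passed. The score of the nuclear genes of complexes III to V rose with it (Pearson's r = 0.98, permutation p = 1e-05, the smallest the resamples can give, adjusted 6e-05; Spearman's rho = 0.98, adjusted p = 0.00012, n = 10 mice). That of the cytosolic ribosomal proteins rose with it too (r = 0.77, adjusted permutation p = 0.0165; rho = 0.77, adjusted p = 0.0248). The length slope fell as the score rose (r = -0.88, adjusted permutation p = 0.00024; rho = -0.92, adjusted p = 0.00126). The genes without overlap in the hAPOE3 mice, as the mean of the higher minus that of the lower and without the complex I genes, rose with it (r = 0.66, adjusted permutation p = 0.0346; rho = 0.73, adjusted p = 0.0305). This last relation no longer passed when S164, S166, S167, S168, S177 or S178 was left out, with r = 0.55 and an adjusted permutation p of 0.162 without S178, and that of the ribosomal proteins no longer passed without S176 or S178.

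The other two relations missed the threshold. The score of the 13 mitochondrial genome genes had r = -0.09 (adjusted permutation p = 0.801; rho = -0.01, adjusted p = 1.00) and the slope of the authors' length correction r = -0.41 (adjusted permutation p = 0.288; rho = -0.41, adjusted p = 0.297). Without S175 and S178, the mice farthest from the median score, r was 0.98 for complexes III to V, 0.58 for the ribosomal proteins, -0.88 for the length slope, 0.55 for the hAPOE3 genes, -0.35 for the mitochondrial genome and -0.10 for the length correction. Within the 5 F.APOE4 and the 5 M.APOE4 mice r was 0.99 and 0.99 for complexes III to V, 0.81 and 0.79 for the ribosomal proteins, -0.88 and -0.91 for the length slope and 0.83 and 0.61 for the hAPOE3 genes. For the mitochondrial genome it was -0.69 and 0.26 and for the length correction -0.83 and -0.34. All scores of a mouse come from the same library and share its scaling.

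**Figure D5:**
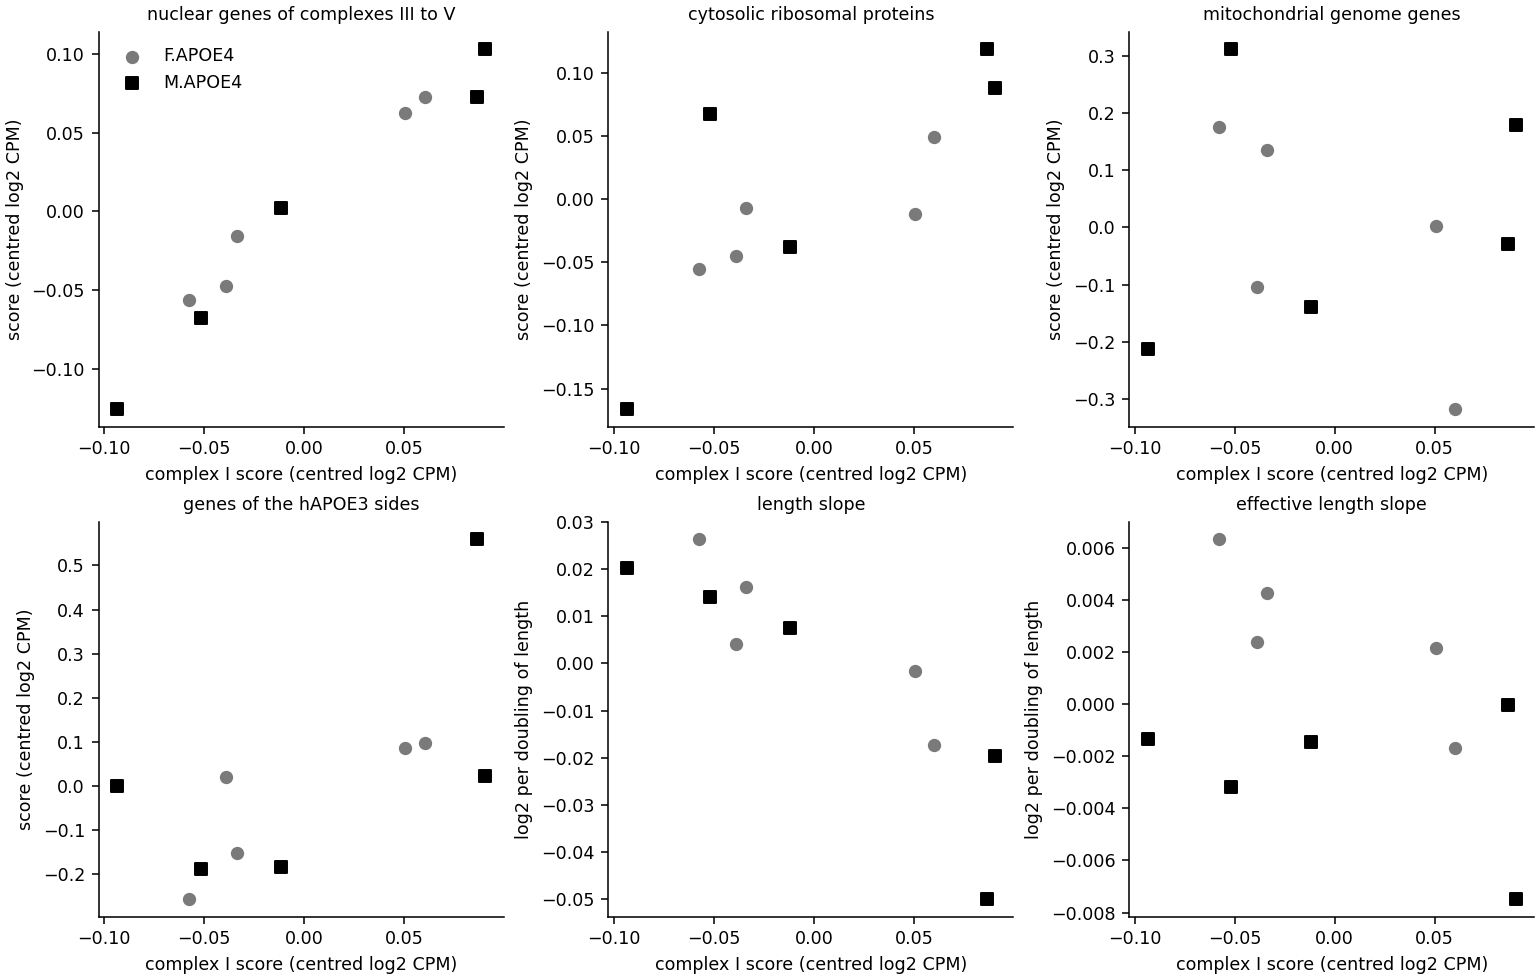
The 6 measures tested against the complex I score in the 10 hAPOE4 mice, each point a mouse, circles F.APOE4 and squares M.APOE4. The scores of complexes III to V lie close to a line (r = 0.98) and the length slope falls (r = -0.88), while the mitochondrial genome genes scatter (r = -0.09); S178 lies apart in the panels of the hAPOE3 genes and of the length slope.

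Gene by gene, the hAPOE4 mice gave few calls. Among 21727 genes outside the pattern, edgeR's quasi-likelihood test called 0 (0%) for a slope on the score at an adjusted p under 0.05, and the smallest adjusted p was 0.397. At an unadjusted p under 0.05 edgeR gave 2111 genes, 921 with a slope above and 1190 with one below 0. DESeq2 called 35 genes with a slope above and 74 with one below 0 at an adjusted p under 0.05, where edgeR called 0. In simulated counts for these mice edgeR called 51% of genes with a slope of 5 and 91% of those with a slope of 10, in units of log2 per unit of score. Slopes near the medians given below, 0.93 and -1.11, were not simulated, so the 0 calls cannot decide on slopes of that size.

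For most genes without overlap the sign of the slope nevertheless followed the hAPOE3 mice. Over all 20497 genes outside the pattern in both fits, the fold change and the slope went together less closely (Pearson's r = 0.27, Spearman's rho = 0.36). Of all 21727 genes 49.4% had a slope above 0. Of 2497 genes higher without overlap in the high-score mice 2191 (87.7%) did, with a median of 0.93, and of 2067 genes lower without overlap 305 (14.8%), with a median of -1.11. Genes are not independent replicates, so these shares carry no test. They rest in part on S178, without which 77.3% of the higher genes had a slope above 0 and 67.0% of the lower genes one below 0. The slope was above 0 for 10 of 10 genes of complex IV, 9 of 9 of complex III, 15 of 16 of complex V, 76 of 79 cytosolic ribosomal proteins and 73 of 77 mitochondrial ribosomal proteins. For the glutamate receptors and scaffolds it was below 0 in 10 of 20, for the channels in 11 of 15 and for the chromatin genes in 11 of 17.

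Single genes of the hAPOE3 contrast can be read beside it. Gabrb2 had a hAPOE4 slope of -5.25, Shc3 one of -5.43, Klhl11 one of -5.72, Gdf1 one of 8.17 and Pcdhgc4 one of 7.54, all with the sign seen in the hAPOE3 mice. Tac1 and C1qtnf5, both with a slope of -2.76, and Pdlim2 with -0.69 had the opposite sign. By length, the median slope was 0.77 for genes of 500 to 1000 bases, 0.52 for 1000 to 2000, 0.09 for 2000 to 4000, -0.41 for 4000 to 8000 and -1.34 over 8000 bases, the same order as in the hAPOE3 mice. Choroid plexus markers had slopes below 0 in 12 of 12 genes in the hAPOE4 mice, while in the hAPOE3 mice 11 of 12 were higher on average in the high-score mice. Oligodendrocyte markers were below 0 in 6 of 6, against 6 of 6 above 0 in the hAPOE3 mice.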

How the data were processed

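Hippocampal polyA libraries of 20 mice (5 per group) were sequenced as paired ends. Reads were assigned by the authors to mouse cDNA using Salmon 0.91, and tximport gave a table per gene. The first deposited table holds estimated counts per gene, as whole numbers. The other deposited table is a normalized signal. For it the authors had DESeq2 divide the counts by factors specific to gene and mouse, and it was used for the length correction and as an alternative. No sample columns were left out.

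From the counts, log2 CPM (counts scaled to a common library size by TMM, prior count 2) and fold changes with F and M as a term (glmQLFit) were computed with edgeR 4.0.16 in R 4.3.3 for genes with at least 10 counts in at least 5 mice. In the hAPOE4 mice each gene was tested for a slope on the complex I score (glmQLFTest, Benjamini-Hochberg, threshold 0.05), with DESeq2 1.42.0 as an alternative. Other tests were Fisher's exact test and permutation tests with 100000 resamples, two-sided. Transcript lengths come from GENCODE M21, not the release 95 of Ensembl that the authors used. On simulated counts the median error of a log2 fold change was 0.117.

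Named genes were, in the pattern, the 4 most expressed and the 3 largest and 3 smallest changes. No gene passed the hAPOE4 test to be named by it. Outside the pattern they were the 10 largest and 10 smallest changes without overlap at 10 CPM or more, and up to 4 most expressed members of a list. Other complex I members, the protocadherins and Cers1 were named after their values were seen. The mice, the gene lists and the tests were chosen with earlier results of these data known. RNA quality per mouse was not used here. Counts at these depths leave little counting error in well expressed genes, but more in genes near the limit of 10 counts. The p-values measure the spread between mice. Some genes that the naming rule selects are not reported here.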

Additional observations from a re-analysis of the deposited data

Results flagged for a closer look

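Dixon's test was applied to each score within the 5 high-score, the 5 low-score and, for the main measures, the 10 hAPOE4 mice. Chance flags about 1 in 20 such groups, and 7 values were set apart among 84 groups looked at. S158 was the highest of the high-score mice for the thalamus score (2.156) and for the oligodendrocytes (1.119). S156 was the lowest of them for the choroid plexus (-1.850) and for nuclear long noncoding RNA (-0.2649), and the highest for the mitochondrial ribosomal proteins (0.3096). S147 was the lowest of them for complex II (0.1195). Among the low-score mice S145 was the highest for the mitochondrial genome (0.2563). No list score had F and M mice moving in opposite directions without overlap.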

How the results depend on the processing

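The difference in the complex I score between the sides was 0.652 and lay between 0.606 and 0.674 with each mouse left out. The length slope differed by -0.105, by -0.158 over genes of 10 CPM or more, -0.0511 over genes with 1 transcript, -0.168 on coding length and -0.127 on the longest transcript. The slope of the length correction differed by -0.00193 over genes with 1 transcript, against -0.00794 in the main setting. Total counts differed by 5462918 to 8495764 with each mouse left out. In the hAPOE4 mice DESeq2 called 109 genes against 0 for edgeR, and leaving out a mouse gave 0 to 1. The relation with the hAPOE3 genes no longer passed with the authors' normalized counts (r = 0.633, adjusted permutation p = 0.056) or with medians (r = 0.543, adjusted permutation p = 0.141), and with each mouse left out r was 0.554 to 0.761. That with the ribosomal proteins was 0.677 to 0.917 and lost its call without S176 or S178. The oligodendrocyte precursor median of -0.40 turned to 0.123 with the authors' normalized counts. Why these values moved was not tested. Genes higher and lower without overlap numbered 2468 to 2981 and 2163 to 2886 with a mouse left out, where the criterion is easier to meet, and 3526 and 2764 without S148 and S158, a setting chosen after seeing the data. Of the fold changes of named genes under the alternatives 21 moved by more than the spread between mice and 2150 did not, and of the list medians 7 and 436. No paired analysis was possible because the groups share fewer than 2 replicate numbers in the labels.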
